A study of Mus musculus with 3 samples.

Results

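The genes described here were 10 genes of the cartilage programme, taken by name out of the 15122 genes of the deposited matrix: the transcription factors Sox9, Sox5, Sox6 and Runx2, the collagens Col2a1, Col9a1 and Col11a1, the joint ligand Gdf5, the ubiquitin ligase Wwp2 and the cartilage membrane protein Cnmd. They were followed in single cells of mouse forelimb buds from wild-type embryos. The study comprised 3 libraries, 1 for each group: strain c57bl6.J at stage E9.5 (B6_E9.5), strain c57bl6.J at stage E10.5 (B6_E10.5) and strain 129S6.sv at stage E9.5 (129_E9.5). Each library was 1 droplet reaction, and the number of embryos in it was not given in the sources used here. No group has a replicate, so ratios between stages or strains come without a test, with intervals for counting error alone. Where 3 values are listed without names, they stand in the order B6_E9.5, then B6_E10.5, then 129_E9.5.

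Limb cartilage forms from mesenchyme cells that condense and then lay down a matrix of type II, IX and XI collagen. SOX9 is required for that commitment and binds enhancers of the collagen genes. SOX5 and SOX6 lack an activation domain of their own and help SOX9 act at those enhancers, and RUNX2 drives later hypertrophy and bone formation. GDF5 marks and shapes the future joints. Wwp2 is a target of SOX9 that hosts the cartilage microRNA gene Mir140, and Cnmd encodes chondromodulin, an inhibitor of vessel growth in cartilage.

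In mm10 coordinates of GENCODE M21, Sox9 lies on the plus strand at chr11:112782224-112787760, Sox5 on the minus strand at chr6:143828425-144781977 and Sox6 on the minus strand at chr7:115470872-116038796. The collagen genes lie at chr15:97975602-98004695 (Col2a1, minus), chr1:24177610-24252684 (Col9a1, plus) and chr3:114030540-114220718 (Col11a1, plus). Gdf5 lies at chr2:155941023-155945367 (minus), Wwp2 at chr8:107436365-107558595 (plus), Cnmd at chr14:79637690-79662170 (minus) and Runx2 at chr17:44495987-44814797 (minus). Runx2 overlaps Supt3 on the opposite strand. Whether counting used strand was not given in the sources used here, so Runx2 values are uncertain to that extent.

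RefSeq promoter windows (GRCm38.p6, the 250 bases before a transcript start) were at hand for 7 of the 10 genes, 13 windows in all. Gdf5, Sox9 and Col2a1 are named only. The core letters bound by SOX proteins, ACAAT or ATTGT on the other strand, were found in 5 of the 13 windows (38.5%), against 9086 of 32851 windows of all genes (27.7%). The 5 windows printed here belong to genes called higher, over all libraries together, in mesenchyme cells with both Sox9 and Col2a1 than with Sox9 alone. Wwp2 was lower in those cells in B6_E9.5, and Sox6 was lower in B6_E9.5 and in 129_E9.5. Capitals mark each match to the core letters. The printed windows of Sox5, Sox6 and Runx2 held 1, 3 and 1 matches, and those of Col9a1 and Wwp2 held 0. Of the 6 windows of Sox6, the one with the most matches is printed, and 3 of the 6 held 0. Apart from the windows of Sox5 and Runx2, all windows with a match belong to Sox6. The window of Col11a1, which was also higher in those cells, and the other window of Col9a1 held 0 and are not printed. A match is a stretch of letters and not a measured binding site.
Sox5 (chr6:143947107-143947356, minus strand): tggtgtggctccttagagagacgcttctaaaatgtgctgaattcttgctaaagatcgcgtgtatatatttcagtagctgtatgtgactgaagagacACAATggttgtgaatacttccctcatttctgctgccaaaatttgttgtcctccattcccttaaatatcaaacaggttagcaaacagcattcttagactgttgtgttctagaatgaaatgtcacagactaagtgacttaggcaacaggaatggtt
Sox6 (chr7:115801610-115801859, minus strand): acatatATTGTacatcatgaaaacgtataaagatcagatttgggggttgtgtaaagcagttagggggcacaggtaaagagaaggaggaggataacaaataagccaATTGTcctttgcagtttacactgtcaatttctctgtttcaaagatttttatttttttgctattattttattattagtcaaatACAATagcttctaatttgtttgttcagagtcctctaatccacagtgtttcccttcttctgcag
Runx2 (chr17:44814628-44814877, minus strand): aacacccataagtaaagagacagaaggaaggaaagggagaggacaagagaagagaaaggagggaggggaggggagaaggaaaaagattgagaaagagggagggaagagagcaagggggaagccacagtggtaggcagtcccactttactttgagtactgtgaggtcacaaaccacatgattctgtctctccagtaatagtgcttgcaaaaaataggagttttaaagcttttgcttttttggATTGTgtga
Col9a1 (chr1:24177360-24177609, plus strand): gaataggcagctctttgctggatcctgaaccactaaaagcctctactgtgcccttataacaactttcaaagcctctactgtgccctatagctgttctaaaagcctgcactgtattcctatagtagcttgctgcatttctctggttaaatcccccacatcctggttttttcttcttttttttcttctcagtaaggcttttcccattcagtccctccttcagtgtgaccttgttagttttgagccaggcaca
Wwp2 (chr8:107436120-107436369, plus strand): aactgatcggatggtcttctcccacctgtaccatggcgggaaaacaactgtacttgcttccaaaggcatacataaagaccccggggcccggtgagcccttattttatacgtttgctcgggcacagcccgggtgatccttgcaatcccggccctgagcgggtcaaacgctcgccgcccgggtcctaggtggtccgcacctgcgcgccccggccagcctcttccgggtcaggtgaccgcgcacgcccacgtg

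The libraries held 12773, 18957 and 12220 cells, and the median depth per cell was 7623, 5710 and 7348 unique molecular identifiers (UMIs, 1 per captured RNA molecule). Libraries shared the barcodes of 1728 cells, which were counted as separate cells. B6_E9.5 stood apart in its shallow cells, with 30.8% of cells under 2000 UMIs against 10.1% in B6_E10.5 and 3.49% in 129_E9.5. The authors' 5 cell clusters were named from marker genes among their 10 leading genes. These were limb mesenchyme with 3 markers of its own list, ectoderm with 5, muscle progenitor with 6, endothelium with 5 and erythroid with 7. Doublets were neither called nor removed here.

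Levels are given as CPM (counts of a gene scaled to 1e+06 UMIs) summed over the cells of a class, with exact Poisson 95% intervals. Sox9 in limb mesenchyme stood at 19.0 CPM (18.1 to 19.8), 201 CPM (198 to 204) and 28.1 CPM (26.9 to 29.4). The E10.5 library was far above both E9.5 libraries, and the E9.5 strains were closer to each other than either was to E10.5. The share of mesenchyme cells with at least 1 Sox9 UMI was 12.8%, 45.6% and 15.4%. Cells were also thinned to 2000 UMIs, and shallower cells were left out, which kept 6981 of 9678, 13704 of 15325 and 8967 of 9233 mesenchyme cells. At that depth the shares were 3.90%, 28.5% and 5.31%. In endothelial cells thinned alike, Sox9 was found in 0 of 551 cells in B6_E9.5, which allows a share of cells with a UMI of up to 0.544%, in 4.30% in B6_E10.5 and in 0.969% in 129_E9.5. The endothelial class is no clean background, since 10 markers of neural crest, a lineage that can express Sox9, summed to 275, 290 and 268 CPM there, and 10 myeloid markers to 1451 CPM in B6_E10.5. The mesenchyme share was above the endothelial one in each library.

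Sox9 was not a gene of mesenchyme alone. At E9.5 its level was higher in ectoderm than in mesenchyme, at 63.7 CPM (59.0 to 68.6) in B6_E9.5 and 35.4 CPM (30.9 to 40.4) in 129_E9.5. At E10.5 the order turned, with 45.6 CPM (40.4 to 51.2) in ectoderm. The ratio of ectoderm to mesenchyme was thus 3.36, 0.227 and 1.26 in the 3 libraries. Muscle progenitors carried 4.95, 30.7 and 4.77 CPM of Sox9, and endothelium 1.45, 27.9 and 3.25 CPM. Both classes were apart from ectoderm in every library, and their intervals overlapped with each other in B6_E10.5 and 129_E9.5. In muscle progenitors Sox9 stood at 26.1%, 15.3% and 17.0% of its mesenchyme level. The 10 mesenchyme markers stood there at 20.2%, 16.3% and 16.1% of theirs. In endothelium these values were 7.68%, 13.9% and 11.5% for Sox9 and 4.88%, 9.27% and 5.97% for the markers. The part of mesenchyme RNA in these Sox9 levels was not tested.

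Sox5 and Sox6, the partners of Sox9, went separate ways. Sox5 in mesenchyme stood at 10.2 CPM (9.57 to 10.8), 40.6 CPM (39.3 to 41.9) and 15.5 CPM (14.6 to 16.5). It was highest in mesenchyme in every library, with ectoderm at 6.79, 8.43 and 8.23 CPM. Sox6 in mesenchyme stood at 16.1 CPM (15.4 to 17.0), 12.4 CPM (11.6 to 13.1) and 10.8 CPM (10.1 to 11.6), lower at E10.5 than in the E9.5 library of the same strain. Sox6 was as high or higher in ectoderm, at 16.8, 17.0 and 15.3 CPM, and the intervals of both classes overlapped in B6_E9.5. In thinned mesenchyme cells Sox6 was found in 3.14%, 2.61% and 1.93%, against 0.363%, 0.538% and 0.969% of endothelial cells. In 129_E9.5 the intervals of these 2 shares overlapped (1.65% to 2.24% and 0.265% to 2.46%).

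Col2a1, which encodes the main cartilage collagen, was higher in ectoderm than in mesenchyme in all 3 libraries. Its ectodermal level was 142 CPM (135 to 149), 115 CPM (107 to 124) and 131 CPM (122 to 140). In mesenchyme it stood at 4.49 CPM (4.08 to 4.93), 60.0 CPM (58.4 to 61.6) and 4.47 CPM (3.99 to 4.99). The classes did not overlap in any library, and the mesenchyme of B6_E10.5 stood far above that of both E9.5 libraries. The ratio of ectoderm to mesenchyme was 31.6 (28.4 to 35.2), 1.92 (1.77 to 2.08) and 29.3 (25.7 to 33.5). In cells thinned to 2000 UMIs, Col2a1 was found in 22.4%, 19.0% and 24.6% of ectodermal cells and in 0.988%, 11.6% and 0.914% of mesenchyme cells. In endothelial cells the shares were 0 of 551, again with a limit of 0.544%, then 3.41% and 0.726%, and in 129_E9.5 the intervals of mesenchyme and endothelium overlapped. Muscle progenitors came next at E9.5, with 44.3 and 21.5 CPM in B6_E9.5 and 129_E9.5, above mesenchyme, and stood at 27.7 CPM in B6_E10.5. The 7 somite and sclerotome markers summed to 868, 362 and 544 CPM in this muscle class, and 10 neuron and neural tube markers to 871 CPM in 129_E9.5. Their part in the Col2a1 level of the class was not tested.

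The other collagen genes did not share the ectodermal level. Col9a1 stood at 8.36 CPM (7.80 to 8.95), 101 CPM (99.0 to 103) and 12.6 CPM (11.8 to 13.5) in the mesenchyme. Its ectodermal level was 1.95, 11.0 and 2.85 CPM, which made the ratio of ectoderm to mesenchyme 0.234, 0.109 and 0.226. Col9a1 was thus higher in mesenchyme than in ectoderm in each library, the reverse of Col2a1. Col11a1 stood at 14.7, 25.5 and 11.4 CPM in mesenchyme and at 17.2, 23.0 and 14.1 CPM in muscle progenitors, and the intervals of these classes overlapped in every library. In ectoderm Col11a1 was lower, at 7.72, 11.3 and 5.54 CPM. The plot of levels by class shows Col2a1 as the collagen gene with its highest points in ectoderm, above those of every other class.

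**Figure D1:**
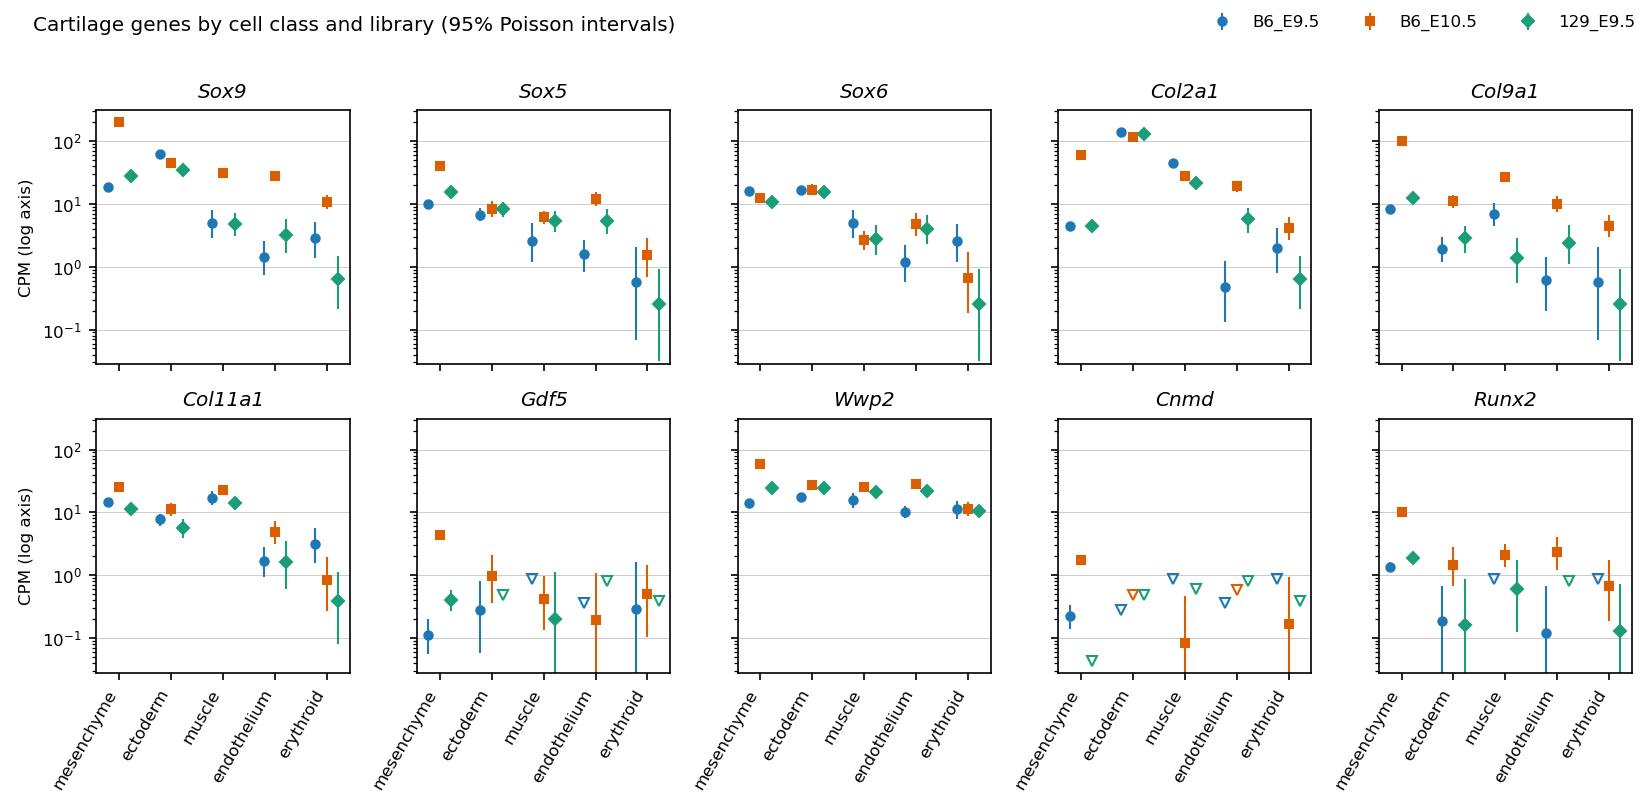
Level of each of the 10 genes in the 5 cell classes of each library, in CPM on a log axis, with exact Poisson 95% intervals; open triangles stand at the limit that a count of 0 allows. Col2a1 was highest in ectoderm in all 3 libraries (115 to 142 CPM), while Sox9 was highest in ectoderm at E9.5 and in mesenchyme at E10.5 (201 CPM).

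Wwp2 was counted in every class, from 10.3 CPM in endothelium to 17.8 CPM in ectoderm in B6_E9.5. In mesenchyme it stood at 14.0 CPM (13.2 to 14.7), 59.5 CPM (57.9 to 61.1) and 24.3 CPM (23.1 to 25.5). In endothelium it stood at 10.3, 28.5 and 22.2 CPM, and in ectoderm at 17.8, 27.6 and 24.2 CPM. The mesenchyme level was apart from that of the next class at E10.5 and overlapped with it in 129_E9.5.

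Gdf5, Cnmd and Runx2 were rare. Gdf5 gave 11, 399 and 28 UMIs in the whole mesenchyme, which is 0.112, 4.40 and 0.399 CPM. Cnmd gave 22, 157 and 0 UMIs in mesenchyme and 0 UMIs in the ectoderm of each library. Runx2 gave 133, 932 and 134 UMIs, or 1.35, 10.3 and 1.91 CPM, in mesenchyme, and 2, 9 and 1 UMIs in ectoderm. All 3 genes had most of their UMIs in mesenchyme of the E10.5 library.

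The stage comparison set the mesenchyme of B6_E10.5 against that of B6_E9.5. Genes were counted as higher or lower at a CPM ratio of at least 2 where the higher library had at least 10 CPM and 20 UMIs, a rule of size and not a test. Of the 8 cartilage genes that passed these limits 6 were higher and 0 lower, against 6.63% higher and 2.67% lower among all 8040 genes. The median log2 ratio of these 8 genes was 2.51, against 0.07 over all genes. Col2a1 (4.49 CPM), Col9a1 (8.36 CPM) and Runx2 (1.35 CPM) were under 10 CPM in B6_E9.5. They entered the count and the median only through B6_E10.5, where they were higher. The rank of the ratios ran from Col2a1 at 13.4 (12.1 to 14.7), Col9a1 at 12.1 (11.3 to 13.0) and Sox9 at 10.6 (10.1 to 11.1) to Runx2 at 7.61 (6.34 to 9.19), Wwp2 at 4.26 (4.01 to 4.52) and Sox5 at 3.98 (3.71 to 4.27). Col11a1 at 1.74 (1.63 to 1.86) and Sox6 at 0.766 (0.709 to 0.827) stayed within a factor of 2. Gdf5, at 39.4 (21.8 to 79.5) on 11 UMIs in B6_E9.5, and Cnmd, at 7.75 (4.94 to 12.7), were under 10 CPM and did not enter the count.

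The same E10.5 library was also set against 129_E9.5, a comparison across strains that shares B6_E10.5 with the first. The ratios there were 13.4 for Col2a1, 8.02 for Col9a1, 7.13 for Sox9, 5.39 for Runx2, 2.62 for Sox5, 2.45 for Wwp2 and 2.23 for Col11a1. Sox6 stood at 1.14 there, on the other side of 1 from its ratio within the strain. Cnmd was 40.5-fold higher with the 0 UMIs of 129_E9.5 set to 3, and the lower limit of the interval was 32.6-fold. In ectoderm the stage ratios within c57bl6.J did not follow those of mesenchyme. Sox9 stood at 0.716 (0.621 to 0.824), Col2a1 at 0.812 (0.741 to 0.888) and Sox6 at 1.01. Col9a1 stood at 5.64 (3.42 to 9.69) and Wwp2 at 1.55 (1.25 to 1.92). Ectodermal Col9a1 was 23.4% of the mesenchyme level in B6_E9.5 and 10.9% in B6_E10.5. The 10 mesenchyme markers stood in ectoderm at 26.7% and 17.3% of their mesenchyme level. The part of mesenchyme RNA in the ectodermal Col9a1 ratio was not tested.

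**Figure D2:**
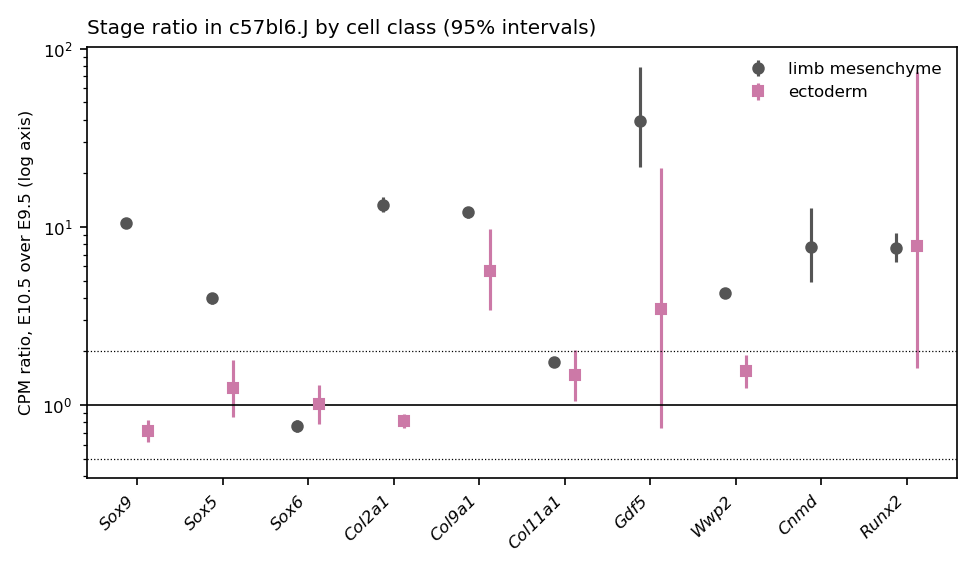
Ratio of CPM of B6_E10.5 over B6_E9.5 on a log axis for each gene in limb mesenchyme and ectoderm, with exact 95% counting intervals, a solid line at no change and dotted lines at 2-fold either way. In mesenchyme Sox9, Col2a1 and Col9a1 lie above 10, whereas in ectoderm Sox9 (0.716) and Col2a1 (0.812) lie below 1; the ectodermal points of Gdf5 and Runx2 rest on few UMIs.

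Related genes gave a mixed picture between stages, by the same size rule. Of 10 measured condensation regulators 5 were higher (Ncam1, Sox4, Foxc1, Zbtb20 and Nfib) and 1 was lower (Itga9). Of 7 measured tendon and connective tissue genes, 6 were higher (Scx, Osr1, Osr2, Tcf4, Tbx18 and Col1a2), and of 12 measured distal limb genes 6 were higher. Of 10 proximal limb genes 2 were higher and 1 lower, and of 16 WNT and FGF genes 2 were higher and 4 lower. Of 9 BMP and TGF-beta genes 1 was higher and 1 lower. Among all 8040 genes the shares were 6.63% higher and 2.67% lower. The limits had to be met in the higher library only, so genes of these lists, too, could enter through B6_E10.5 alone. Between the E9.5 libraries the same limits were met by 5 tendon and connective tissue genes, 8 condensation regulators and 11 distal limb genes. Only 1 of the 12 other cartilage matrix genes in the matrix reached the limits, and its ratio was under 2. Somite and sclerotome markers in the mesenchyme class summed to 17.2, 150 and 22.8 CPM, over 7 listed genes found in the matrix. Sclerotome, which derives from somites, also makes cartilage. Without cells that carried a UMI of a listed marker of another cell type, the stage ratio was 13.0 for Sox9, 15.1 for Col2a1, 13.8 for Col9a1 and 5.04 for Runx2.

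The strain comparison shared B6_E9.5 with the stage comparison. Of 6 cartilage genes within the limits 0 were at least 2-fold higher or lower in 129_E9.5, against 2.68% higher and 4.05% lower among all 7750 genes. The ratios of 129_E9.5 over B6_E9.5 in mesenchyme were 1.74 for Wwp2, 1.52 for Sox5, 1.51 for Col9a1, 1.48 for Sox9, 0.995 (0.859 to 1.15) for Col2a1, 0.779 for Col11a1 and 0.672 for Sox6. Cnmd had 22 UMIs in B6_E9.5 and 0 in 129_E9.5. With the 0 set to 3 it was 5.23-fold lower in 129_E9.5, and the lower limit of the interval was 3.91-fold. Gdf5, also under the limits, stood at 3.57 (1.72 to 7.94) on 28 against 11 UMIs, and Runx2 at 1.41 (1.10 to 1.81). In ectoderm Sox9 stood at a ratio of 0.557.

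To see which genes went with Sox9 inside a class, mesenchyme cells with at least 1 Sox9 UMI were set against those with none in each library. The UMIs of each side were summed, and the 6 sums were tested with edgeR's quasi-likelihood test with library as a term and Benjamini-Hochberg adjustment over all genes. The positive cells numbered 1241, 6990 and 1422. They were deeper than the negative cells, with medians of 17175 against 7068 UMIs, 5646 against 5152 and 7882 against 7387. Sox9 made the split and was left out. Of the 9 other cartilage genes 4 rose (Col2a1, Col9a1, Gdf5 and Runx2) and 0 fell, against 2.13% that rose and 2.31% that fell among all 12752 genes.

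Col2a1 stood at 5.40 CPM in positive and 4.27 CPM in negative cells of B6_E9.5, 98.8 against 23.1 CPM in B6_E10.5 and 8.67 against 3.62 CPM in 129_E9.5. It was higher on the positive side in 3 of 3 libraries, with a log2 fold change of 1.51 (SE 0.252, edgeR adjusted p = 0.0144). Col9a1 stood at 10.1 against 7.94 CPM, 141 against 63.1 CPM and 16.1 against 11.9 CPM, also higher in 3 of 3 libraries (log2 fold change 0.77, SE 0.139, edgeR adjusted p = 0.0187). Col9a1 and Col2a1 encode partners in the same fibril.

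Runx2 stood at 1.78 against 1.25 CPM, 12.8 against 7.89 CPM and 3.66 against 1.56 CPM (log2 fold change 0.76, SE 0.144, edgeR adjusted p = 0.0222). Gdf5 stood at 0.157 against 0.101 CPM, 6.18 against 2.71 CPM and 0.595 against 0.359 CPM (log2 fold change 1.08, SE 0.213, edgeR adjusted p = 0.0261), on 3 and 8 UMIs in B6_E9.5. Both were higher on the positive side in 3 of 3 libraries. The call of Gdf5 was lost without B6_E10.5 (log2 fold change 0.67, edgeR adjusted p = 0.64), and without 129_E9.5 those of Gdf5 (0.094) and Runx2 (0.11) were lost as edgeR adjusted p-values. By DESeq2 only Runx2 passed among the cartilage genes (adjusted p = 0.027), with Col2a1 at 0.18.

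Sox5 (log2 fold change 0.63, edgeR adjusted p = 0.0927), Sox6 (0.54, 0.149), Wwp2 (0.61, 0.184), Cnmd (2.44, 0.0577) and Col11a1 (0.16, 0.572) did not pass. Their values divided by library. At E10.5 Sox5 stood at 57.1 against 24.9 CPM, Sox6 at 17.8 against 7.20 CPM and Wwp2 at 88.6 against 31.8 CPM. In B6_E9.5 the same genes stood at 9.54 against 10.3 CPM, 16.8 against 16.0 CPM and 13.4 against 14.1 CPM. In 129_E9.5 they stood at 20.1 against 14.6 CPM, 12.2 against 10.6 CPM and 24.9 against 24.2 CPM. The sides were apart for all 3 genes at E10.5, for none in B6_E9.5 and for Sox5 in 129_E9.5. Without B6_E10.5 the fold changes of Wwp2 and Col11a1 turned to -0.04 and -0.22. With cells thinned to 2000 UMIs, all 7 cartilage genes that could be tested rose. Among them were Sox5 (0.95, edgeR adjusted p = 1.7e-10), Wwp2 (1.18, 9.5e-23) and Col11a1 (0.60, 0.0037). The share of all genes that rose in thinned cells is not given here, so this count stands without a background.

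**Figure D3:**
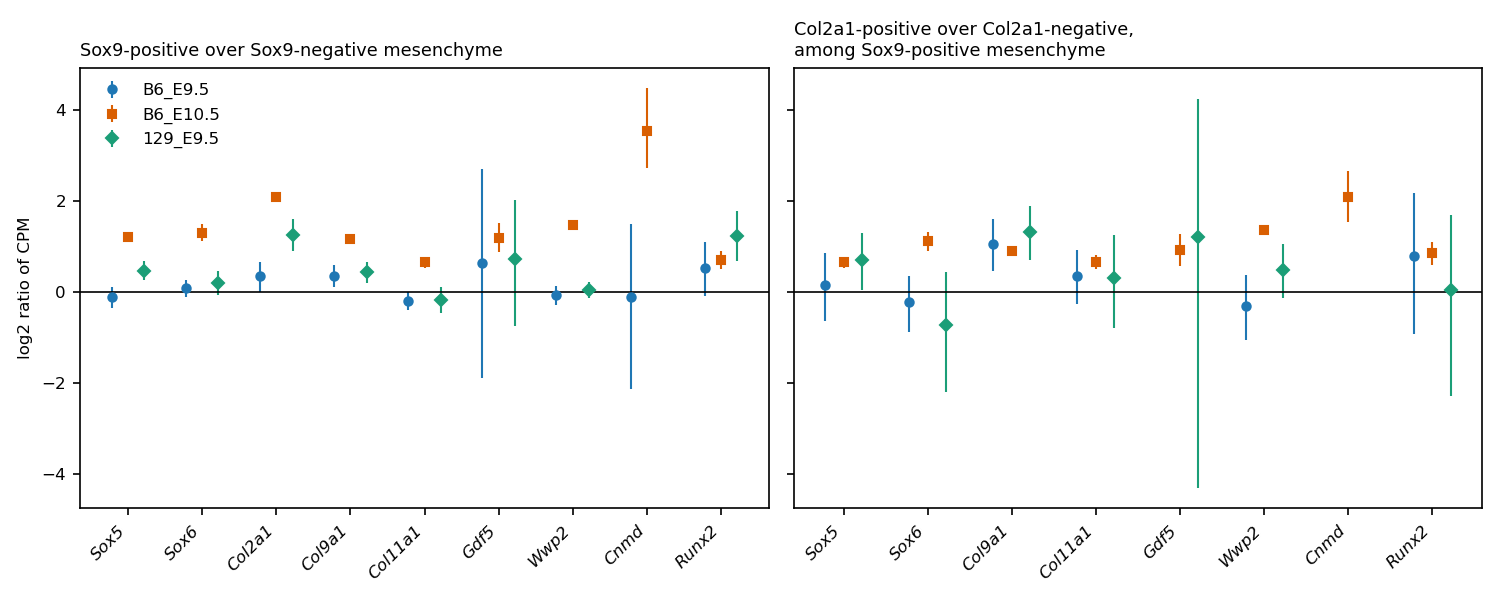
Log2 ratio of CPM in positive over negative cells for each gene and library, with exact 95% counting intervals, for the split of mesenchyme by Sox9 (left) and of Sox9-positive mesenchyme by Col2a1 (right). In the Sox9 split Sox5, Sox6 and Wwp2 stand above 1 in B6_E10.5 and near 0 in B6_E9.5, and in the Col2a1 split Col9a1 is above 0 in 3 of 3 libraries.

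The ratio of positive over negative cells was set side by side between libraries, with exact 95% counting intervals. Wwp2 stood at 2.78 (2.62 to 2.96) in B6_E10.5, 0.947 (0.824 to 1.09) in B6_E9.5 and 1.03 (0.906 to 1.17) in 129_E9.5. Col2a1 stood at 4.28 (4.003 to 4.58), 1.26 (1.00 to 1.58) and 2.39 (1.87 to 3.04) in the same order, and Sox6 at 2.47 (2.17 to 2.81), 1.05 (0.929 to 1.19) and 1.15 (0.951 to 1.38). The Sox5 ratio was 2.29 (2.14 to 2.46) in B6_E10.5, 0.923 (0.781 to 1.08) in B6_E9.5 and 1.38 (1.19 to 1.60) in 129_E9.5.

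For Sox5, Sox6, Col2a1, Col9a1, Col11a1 and Wwp2 the interval of B6_E10.5 lay above those of both E9.5 libraries, and for Gdf5 and Runx2 it overlapped with both. Cnmd had 144 positive-side and 13 negative-side UMIs in B6_E10.5, 4 and 18 in B6_E9.5 and 0 and 0 in 129_E9.5, too few at E9.5 to compare. E10.5 has 1 library, so whether the split differs between stages was not tested. Sox9 itself stood at 19.0 CPM in the mesenchyme of B6_E9.5 and 28.1 CPM in 129_E9.5, against 201 CPM in B6_E10.5. Cells with Sox9 RNA but no captured UMI fell on the negative side, and their part in these ratios was not tested.

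The genes that rose with Sox9 outside the cartilage set included 7 of 10 proximal limb genes, the factors of the upper limb segment, among them Meis1 (0.57), Meis2, Shox2, Irx3 (0.76), Irx5 (0.73) and Emx2, as log2 fold changes, while Hoxa9 fell. Of 13 distal limb genes, the factors of the growing tip, 0 rose and 9 fell, among them Msx2 (-0.85), Msx1 (-1.17) and Hoxd12 (-1.18). The median log2 fold change was 0.55 over the proximal and -0.71 over the distal list, against 0.00 over all genes. Of 17 WNT and FGF genes 10 fell, with the FGF feedback inhibitor Spry4 at -1.23 and the ligand Wnt5a at -0.51, and 1 rose (Fgfr1, 0.22).

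Of 15 BMP and TGF-beta genes 0 rose and 5 fell (Bmp2, Bmp4, Bmp5, Id3 and Bambi). Of 11 tendon and connective tissue genes 4 rose (Scx, at 0.90, Osr2, at 1.11, Tbx18 and Col1a2), and of 14 condensation regulators 4 rose (Foxc1, at 1.47, Bmpr1b, at 0.68, Sox4 and Zbtb20). Of 10 osteoblast genes Spp1 rose (1.44) and Dlx5 fell (-1.30), and of 5 other cartilage matrix genes 0 passed. The shares over all 12752 genes were 2.13% that rose and 2.31% that fell. Fibin (1.65), Foxp2 (0.83), Tcf7l2 (0.83), Sema6a (0.96), Rgma (0.75), Ddit4 (0.73), Lrig3 (0.66) and Cdon (0.54) were also among the genes of smallest p that rose. Lmo2 (-1.82), Dync1i1 (-1.34), Eogt (-1.29), Socs2 (-1.17), Crym (-1.13), Zic5 (-0.93) and Tmsb4x (-0.36) were among those that fell.

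Markers of other cells moved with the split in part. Of 6 tested somite and sclerotome markers 2 rose (Meox1 and Tcf15), of 5 notochord markers 1 rose (Cthrc1), of 7 muscle progenitor markers 0 passed, and of 9 mesothelium and flank markers 2 fell. Without the cells that carried a UMI of a somite, neural crest, notochord or muscle marker, 88 genes rose and 71 fell. Of the cartilage genes Col2a1 alone passed then, with Col9a1 at an edgeR adjusted p of 0.085 and Runx2 at 0.056. This filter left 493, 2488 and 823 Sox9-positive cells. The Sox9-negative cells of B6_E9.5 then had a median of 2893 UMIs, against 7068 before. The part of cell number and depth in the lost calls was not tested.

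Order of appearance was read along the Sox9 level, since the cells carry no time label. Mesenchyme cells thinned to 2000 UMIs were binned by 0, 1, 2, 3 and 4 or more Sox9 UMIs. A gene was said to appear at the lowest bin whose share of positive cells had an exact 95% interval above that of the bin with 0. The bins of B6_E10.5 held 9793, 2456, 893, 389 and 173 cells. B6_E9.5 filled only the first 2 bins to 20 cells or more (6709 and 251 cells), and 129_E9.5 the first 3 (8491, 427 and 43 cells).

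In B6_E10.5 all 9 other genes appeared at the bin of 1 Sox9 UMI, so that no order among them could be read. The share with Col2a1 went 7.22%, 19.3%, 26.4%, 29.8% and 32.4% over the 5 bins, and Col9a1 went 13.8%, 26.4%, 32.4%, 32.6% and 32.4%. Wwp2 went 7.62%, 15.6%, 21.6%, 26.2% and 28.3%.

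For the Sox9 partners Sox5 went 5.79%, 11.5%, 15.7%, 14.1% and 14.5%, while Sox6 went 1.92%, 3.09%, 5.60%, 7.20% and 8.67%. Col11a1 went 4.48%, 6.76%, 7.28%, 7.97% and 9.83%, and Cnmd 0.163%, 0.733%, 0.784%, 1.03% and 2.31%. The shares of Gdf5 (0.725% to 3.60%) and Runx2 (1.85% to 3.25%) were highest in the bins of 3 and 2. From the bin of 2 on, the intervals of neighbouring bins overlapped for all of these genes.

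The order was set by few cells at E9.5. In 129_E9.5 Col2a1 appeared at the bin of 1 Sox9 UMI (0.801%, 2.58% and 6.98%), Sox6 at the bin of 2 (1.90%, 1.87% and 9.30%) and no other gene at any bin. In B6_E9.5 no gene appeared, and Col2a1 stood at 1.00% and 0.797%. When cells were thinned to 4000 UMIs, Col2a1 appeared in 129_E9.5 at the bin of 2, Wwp2 at the bin of 3 and Sox6 at none, and in B6_E10.5 Col11a1 appeared at the bin of 2. With thinning to 2000 UMIs and only cells of at least 2000 genes and at most 5% mitochondrial UMIs, Sox6 appeared at the bin of 2 and Gdf5 at none in B6_E10.5, and Sox6 at none in 129_E9.5.

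**Figure D4:**
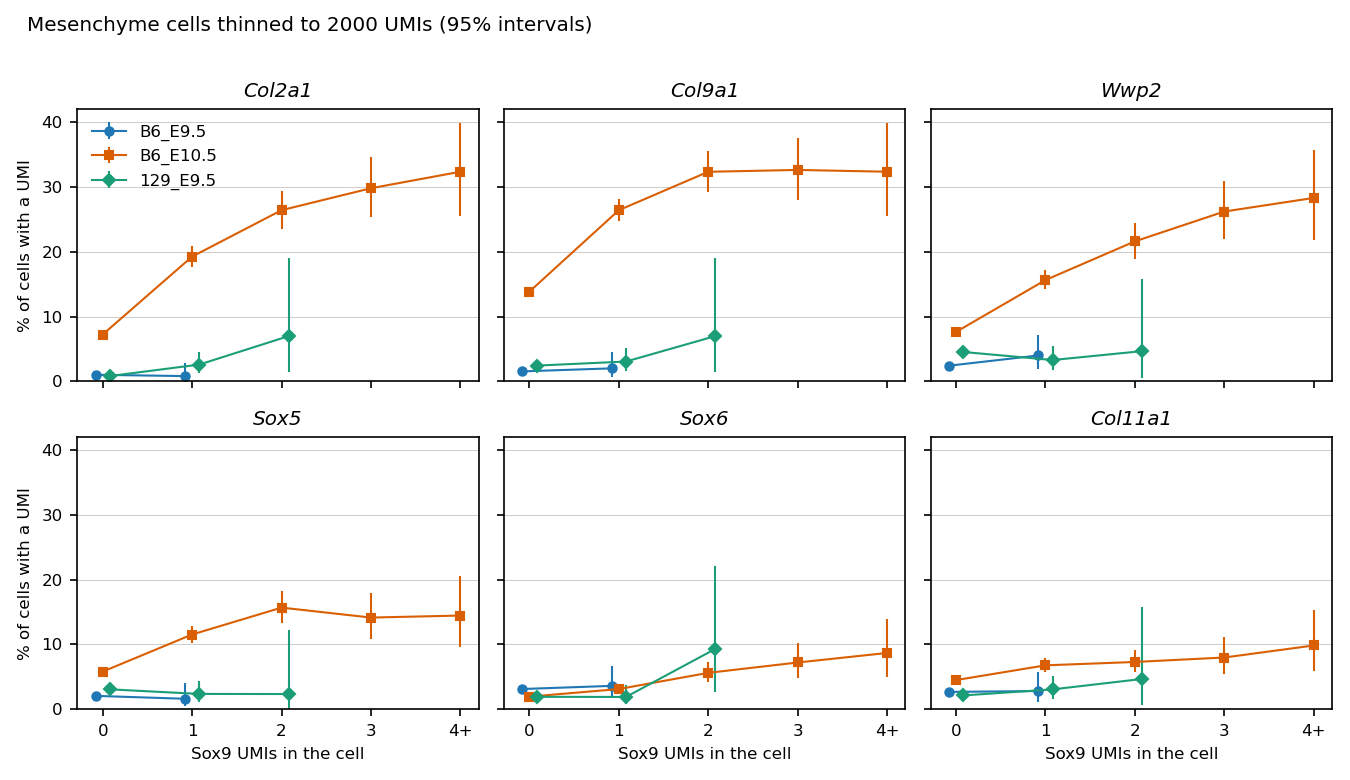
Share of mesenchyme cells with at least 1 UMI of each gene, in percent, by the number of Sox9 UMIs in cells thinned to 2000 UMIs, with exact Clopper-Pearson 95% intervals. In B6_E10.5 Col2a1 climbed from 7.22% to 32.4%, and Col9a1 stood between 32.4% and 32.6% from the bin of 2 on.

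Among 3911 thinned Sox9-positive mesenchyme cells of that library, 39.9% had none of the 9 other genes, 33.3% had 1, 17.1% had 2 and 9.61% had 3 or more. Among 9793 Sox9-negative cells the shares were 67.5%, 24.1%, 6.20% and 2.22%. In the E9.5 libraries the sides were close. Cells with none of the 9 genes made up 84.2% of positive and 87.9% of negative cells in B6_E9.5. In 129_E9.5 these shares were 82.8% and 85.9%. Sox9 itself was found in only 3.90% of thinned mesenchyme cells of B6_E9.5 and 5.31% of 129_E9.5, against 28.5% in B6_E10.5. Cells with Sox9 RNA but no captured UMI count as negative, and their part in the closeness of the sides was not tested.

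Within the Sox9-positive cells of B6_E10.5 each gene was compared in cells with and without each other gene, 36 pairs read both ways. The intervals were apart in 28 of 72 readings, all 28 of them higher with the partner, and 12 pairs were apart both ways. Values for pairs of genes outside the cartilage set are not given here, so these counts stand without a background. The intervals take cells of the same library as independent. Col2a1 was found in 40.8% of cells with Sox6 against 21.7% without, and in 37.8% of cells with Wwp2 against 19.0% without. Wwp2 was found in 36.7% of cells with Sox6 against 17.8% without. Sox6, Wwp2 and Col2a1 were apart both ways in each of their 3 pairs.

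Gdf5 and Cnmd stood with the collagens on few cells. Col9a1 was found in 52.8% of the 72 cells with Gdf5 against 28.2% of those without. Col2a1 was found in 48.5% of the 33 cells with Cnmd against 22.3% without. Runx2 had no partner among the 8 others whose presence set its share apart. The E9.5 libraries had too few cells for this comparison under the limit of 20 cells.

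The Sox9-positive mesenchyme cells were split again by Col2a1, to compare cells with both genes to cells with Sox9 alone. The cells with Col2a1 numbered 94, 2645 and 88, so that most of the counts came from E10.5. Sox9, which chose the cells, stood at 95.9 against 98.0 CPM, 492 against 360 CPM and 192 against 166 CPM. All 7 cartilage genes that could be tested rose, against 2.22% that rose and 3.16% that fell among all 11566 genes.

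Col9a1 stood at 19.2 CPM in cells with and 9.22 CPM in cells without Col2a1 in B6_E9.5, 197 against 105.5 CPM in B6_E10.5 and 36.4 against 14.6 CPM in 129_E9.5. It was higher in 3 of 3 libraries (log2 fold change 0.91, SE 0.0854, edgeR adjusted p = 3.1e-22). Wwp2 stood at 11.0 against 13.6 CPM, 142 against 55.0 CPM and 33.9 against 24.3 CPM (log2 fold change 1.07, SE 0.0932, edgeR adjusted p = 2.0e-25), higher in 2 of 3 libraries. Sox6 stood at 14.5 against 17.1 CPM, 26.5 against 12.2 CPM and 7.54 against 12.5 CPM (log2 fold change 0.66, SE 0.134, edgeR adjusted p = 8.0e-05), higher at E10.5 alone.

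Sox5 (0.58, edgeR adjusted p = 3.6e-06), Runx2 (0.77, 0.00084), Col11a1 (0.55, 0.00025) and Gdf5 (0.88, 0.023) completed the genes that rose. At E9.5 Gdf5 had 0 against 3 UMIs in B6_E9.5 and 1 against 6 in 129_E9.5. Runx2 had 5 against 29 and 3 against 40 there. Cnmd was not tested and stood at 6.12 against 1.44 CPM at E10.5. Without B6_E10.5 only Col9a1 passed among them (1.16, edgeR adjusted p = 0.00021), Wwp2 stood at 0.09 and Sox6 turned to -0.37. By DESeq2, too, Col9a1 alone of the cartilage genes passed (0.98, adjusted p = 1.8e-07). In thinned cells, with 2, 881 and 14 Col2a1-positive cells, Sox6 (1.20, edgeR adjusted p = 0.0046) and Wwp2 (1.19, 0.012) passed.

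The ratio for Sox6 was 2.16 (1.87 to 2.50) in B6_E10.5, 0.852 (0.542 to 1.28) in B6_E9.5 and 0.604 (0.218 to 1.35) in 129_E9.5. For Wwp2 it was 2.58 (2.41 to 2.75), 0.812 (0.480 to 1.30) and 1.40 (0.905 to 2.08). Both genes had the interval of B6_E10.5 above those of the E9.5 libraries, and the difference between stages was not tested.

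Beyond the cartilage genes, of 12 distal limb genes 0 rose and 12 fell with Col2a1, among them Lhx2 (-0.98), Msx1 (-0.80), Lhx9 (-0.68), Grem1 (-1.39), a BMP antagonist, and Hoxa11 (-1.08). Of 10 proximal limb genes 7 rose, with Meis2 at 0.45, and Hoxa9 (-0.50) and Hoxd9 fell. The WNT inhibitor Sfrp1 (0.90), Igfbp5 (1.02), Fibin (1.09), Fam181b (0.98), Jun (0.89), the chemokine Cxcl12 (0.88), Foxp1 (0.75), the cell cycle inhibitor Cdkn1c (0.47) and Dlk1 (0.47) rose. Zic5 (-1.17), Vegfd (-1.10), Sall3 (-0.99), Socs2 (-0.82), Supt16 (-0.47) and Crabp1 (-0.44) fell. Of 13 condensation regulators 4 rose (Cdh2, Sox4, Foxc1, at 1.14, and Zbtb20), and of 3 other cartilage matrix genes 0 passed. The shares over all 11566 genes were 2.22% that rose and 3.16% that fell. Of 4 somite markers Meox1 and Tcf15 rose while Pax1 and Meox2 fell. Their part in the result was not tested, and without cells that carried such a marker Sox5, Sox6, Col9a1 and Wwp2 passed.

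Since Sox9 and Col2a1 were both high in ectoderm, that class was split by each of them as well, a comparison added after the data were seen. Sox9-positive ectodermal cells numbered 370, 163 and 180, and Col2a1-positive cells 662, 442 and 564. Positive cells were again deeper, with medians of 13052 against 7907, 7458 against 5487 and 5647.5 against 4589 UMIs for Sox9, and 12933 against 4711, 6740.5 against 4668 and 5307.5 against 4140 for Col2a1.

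The link between Sox9 and Col2a1 seen in mesenchyme was not detected in ectoderm. Col2a1 stood at 146 CPM in Sox9-positive and 139 CPM in Sox9-negative ectodermal cells of B6_E9.5, 126 against 112 CPM in B6_E10.5 and 136 against 130 CPM in 129_E9.5 (log2 fold change 0.08, SE 0.0736, edgeR adjusted p = 0.880). Sox9 in turn stood at 64.3 against 61.0 CPM, 45.0 against 46.1 CPM and 34.9 against 36.0 CPM across the Col2a1 split (edgeR adjusted p = 1). In thinned cells the first of these values turned to -0.29 (edgeR adjusted p = 0.956). Whether the ectodermal and mesenchymal effects differ was not tested. Of the 6 cartilage genes that could be tested 0 passed in either ectodermal split, against 0.249% that rose and 0.249% that fell of all 10832 genes for Sox9, and 0.402% and 0.441% of 10207 for Col2a1. Col9a1 came nearest, at 30.8 against 5.92 CPM in Sox9-positive and Sox9-negative ectoderm of B6_E10.5 (log2 fold change 1.58, edgeR adjusted p = 0.0507).

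Fgf8, the growth factor of the apical ectodermal ridge at the bud's rim, moved in opposite directions with the 2 genes. Across the Sox9 split it stood at 371 CPM in positive and 658 CPM in negative cells of B6_E9.5, 499 against 1132 CPM in B6_E10.5 and 345 against 827 CPM in 129_E9.5, lower in 3 of 3 libraries (log2 fold change -1.07, SE 0.0622, edgeR adjusted p = 3.5e-11). Across the Col2a1 split it stood at 569 against 351 CPM, 1411 against 556 CPM and 821 against 659 CPM, higher in 3 of 3 libraries (0.78, SE 0.0996, edgeR adjusted p = 9.8e-05). By DESeq2 the fall with Sox9 passed (-1.09, adjusted p = 2.8e-33) and the rise with Col2a1 did not (0.77, adjusted p = 1).

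The following ectodermal genes were chosen after their values were seen. Bmp4, a ligand of the ridge, fell with Sox9 (-0.62, edgeR adjusted p = 0.00041) and rose with Col2a1 (0.57, 0.0076). The keratin gene Krt8 rose with Sox9 (0.57, edgeR adjusted p = 0.00079) and fell with Col2a1 (-0.48, 0.011), and so did the junction gene Nectin4 (1.23, 0.0011, and -1.04, 0.022). The WNT agonist Rspo2 rose with Col2a1 (0.83, edgeR adjusted p = 0.0012) and stood at -0.51 with Sox9 (0.073). Slc24a5 fell in both splits (-0.41, edgeR adjusted p = 0.0091, with Sox9 and -0.56, 0.0012, with Col2a1). By DESeq2 0 genes rose and 3 fell with Col2a1 in ectoderm, with 73 and 73 at an unadjusted p under 0.05. Of 10 mesenchyme markers Shox2 (2.15) and Prrx1 (1.18) rose in Sox9-positive ectoderm, though Shox2 stood at 4.10 against 4.09 CPM and Prrx1 at 14.9 against 15.9 CPM in B6_E9.5, and of 6 tested erythroid markers Hbb-bh1 and Hbb-y fell with Sox9. Of 5 erythroid markers tested with Col2a1 all 5 fell, Hbb-bh1 and Hbb-y among them. The part of other cells' RNA in these ectodermal results was not tested.

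**Figure D5:**
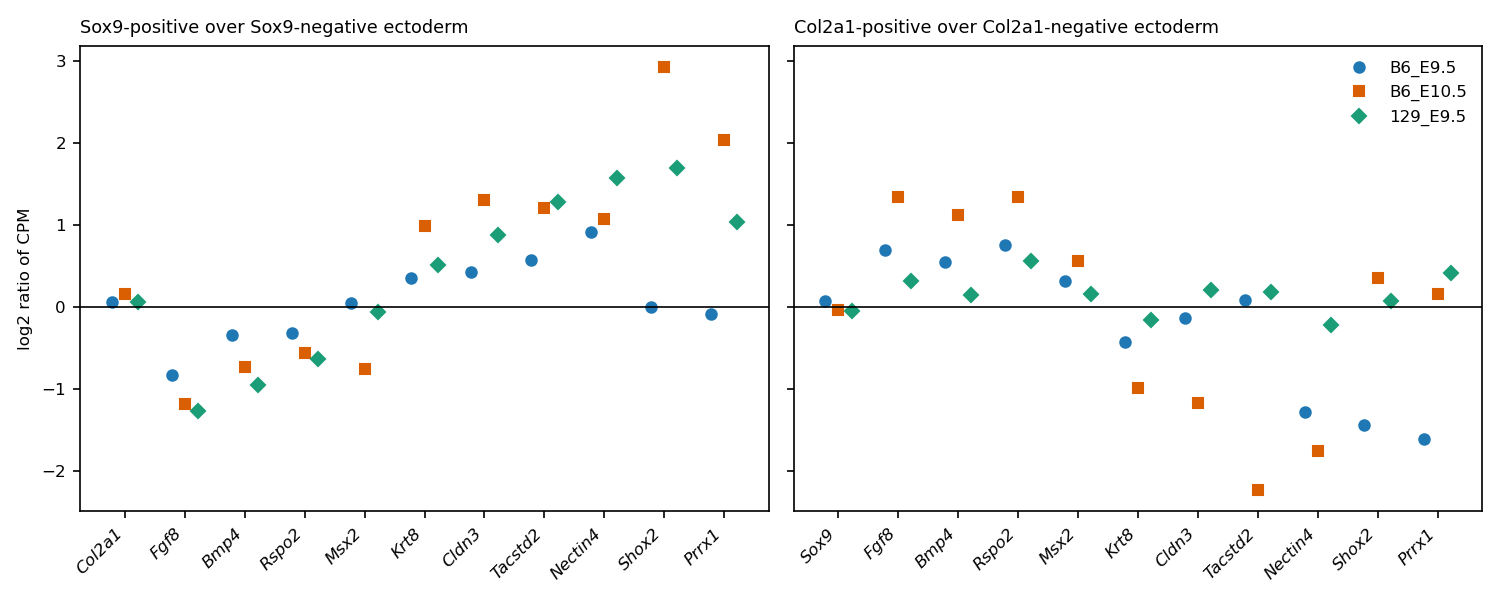
Log2 ratio of CPM in positive over negative ectodermal cells, for the split by Sox9 (left) and by Col2a1 (right), 1 point per library, without intervals. Fgf8 lies below 0 on the left and above 0 on the right in 3 of 3 libraries, and Col2a1 and Sox9 lie near 0 across each other's split.

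Over the 15 sums of a library and a class, the genes most like Sox9 by Pearson correlation of log2(CPM + 1), among 7717 genes of at least 10 CPM on average, were Col1a2 (0.916), S1pr3 (0.897), Dhx16 (0.881), Nfatc4 (0.878) and Epha4 (0.875). Among the cartilage genes Col9a1 ranked 67 (0.788) and Col2a1 173 (0.737). The genes most like Col2a1 were Fras1 (0.915), a basement membrane gene of ectoderm, Cib2 (0.913), Pcmtd2 (0.913), Mycl (0.906) and Pick1 (0.905). Sox9 ranked 400 and Col9a1 3868 (0.452) on that list. The 15 sums share 3 libraries and differ in depth, and these values are descriptions.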

How the data were processed

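The authors deposited 1 matrix of raw UMI counts, not normalized, for 3 libraries (B6_E9.5 with 124388358 UMIs, B6_E10.5 with 119942504 and 129_E9.5 with 93029510). Cell Ranger 3 and mm10 are named in the submitters' processing notes. The annotation release and clustering method were not given in the sources used here. Deposited cells had 501 to 38723 UMIs and at most 10% mitochondrial UMIs. Stage, strain and cluster of each cell came from the deposited cell table, and symbols were matched by Ensembl identifier for 15119 genes.

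UMIs were summed per library and cluster and divided by the sum to give CPM. Intervals are exact at 95% (Poisson for CPM, Clopper-Pearson for shares, conditional binomial for ratios) and cover counting error only. A count of 0 was set to 3 UMIs in ratios. Splits were tested with edgeR 4.0.16 (quasi-likelihood, TMM, filterByExpr, library as a term, 6 sums, adjusted p under 0.05) and with DESeq2 1.42.0 as an alternative. The paired sums came from the same reaction, so the library term is a pairing by source. P-values rest on 3 libraries, which are 1 reaction each and differ in stage and strain. They lean on the library with the most counts, which was B6_E10.5 in the Col2a1 split of mesenchyme. There Sox6 and Wwp2 passed without the same direction in each library, so a small p is no measure of agreement between libraries. The fits were tested on simulated data.

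Other alternatives were cells thinned to 2000 or 4000 UMIs, cells of at least 2000 genes and at most 5% mitochondrial UMIs, no filter on low counts, at least 2 UMIs for a positive cell, cells without marker UMIs of other types, no library term, each library left out, and other CPM limits or TMM scaling for ratios.

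The 10 genes and all gene and marker lists were chosen with earlier results of these data known. Named genes were the 10 genes, the 12 of smallest p in each direction of the mesenchyme splits that moved alike in 3 of 3 libraries, and up to 4 called members of each list with the most UMIs. Other members of called lists, and the ectodermal genes, were named after their values were seen. The ectodermal splits were added after seeing the data. List members without a row in the matrix, 16 in all, were not used. A few genes that this rule names are not reported here.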

Additional observations from a re-analysis of the deposited data

Results flagged for a closer look

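For 5 values the split went one way in B6_E10.5 and the other way in both E9.5 libraries, among genes with at least 20 UMIs in each library. Across the Sox9 split of mesenchyme the log2 ratio of Col11a1 was 0.65 in B6_E10.5, against -0.20 in B6_E9.5 and -0.18 in 129_E9.5. Across the Col2a1 split of Sox9-positive mesenchyme that of Sox6 was 1.11, against -0.23 and -0.73. In ectoderm Col11a1 stood at 1.11, against -0.12 and -0.71, across the Sox9 split and at 0.72, against -0.14 and -0.35, across the Col2a1 split, and Sox6 at -0.32, against 0.63 and 0.21, across the Sox9 split. The 95% counting intervals of B6_E10.5 and both E9.5 libraries did not overlap for the 2 mesenchyme values, and overlapped with at least 1 E9.5 library for the 3 ectodermal ones. The differences were not tested, since E10.5 has 1 library, and stage, depth and reaction cannot be told apart in this design.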

How the results depend on the processing

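Of the values for single genes, 249 kept their direction and call or moved within their interval, 93 moved, 38 lost and 9 gained a call and 8 reversed. Of the counts of genes, 38 stayed within 1.5 times and 54 moved. Stage ratios in mesenchyme called 151 genes higher and 88 lower at a limit of 50 CPM and 1980 and 761 with no CPM limit, and strain ratios 80 and 116, then 703 and 1052. For the Sox9 split 272 genes rose and 294 fell. DESeq2 called 161 higher, at least 2 UMIs for a positive cell gave 512 and 736, leaving out cells with markers of other types gave 88 and 71, and leaving out each library gave 62 to 498 and 74 to 793. For the Col2a1 split (257 and 365) DESeq2 gave 42 and 32, thinned cells 9 and 8, at least 2 UMIs 69 and 82, no marker cells 70 and 68, and each library left out 90 to 261 and 66 to 288. For the Sox9 split of ectoderm (27 and 27) DESeq2 gave 6 and 7, thinned cells 9 and 6, and each library left out 1 to 83 and 1 to 52. For the Col2a1 split of ectoderm (41 and 45) DESeq2 gave 0 and 3, thinned cells 19 and 7, the quality limit on cells 26 and 18, and each library left out 3 to 59 and 17 to 71. With no replicate block (no library term, so the sums were not paired) edgeR called 0 and 0 genes in all 4 splits. At an unadjusted p under 0.05 it then had 26 higher and 32 lower for Sox9 in mesenchyme, 22 and 14 for Col2a1, 35 and 27 for Sox9 in ectoderm and 15 and 15 for Col2a1 in ectoderm. Without each library in turn, the Sox9 split of mesenchyme ranged from -0.22 to 0.36 for Col11a1 and from -0.038 to 0.90 for Wwp2, and the Col2a1 split from -0.37 to 0.90 for Sox6, with the negative values without B6_E10.5. In ectoderm Col2a1 turned to -0.29 in thinned cells. Sox9 there, near 0 in the reported test, stood at 0.021 with no replicate block and 0.086 under the quality limit, and ranged from -0.054 to 0.019 with each library left out. Splits without a library keep 2 reactions, and thinning leaves few positive cells. Other causes of these shifts were not tested. Gdf5 and Cnmd gave at most 22 mesenchyme UMIs in B6_E9.5, so that small differences between the sides of a split were not detectable there.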
